A study of Mus musculus with 6 samples.

Results

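The genes described here are 10 core components of Notch signalling: the receptor genes Notch1, Notch2, Notch3 and Notch4, the ligand genes Jag1, Jag2, Dll1 and Dll4, and the target genes Hes1 and Hey1. They were chosen by gene symbol, and all 10 were found among the 25302 rows of the expression table. RNA sequencing covered intrahepatic biliary epithelial cells, which form the lining of the bile ducts, in 3 mouse liver samples labelled Control and 3 labelled Sox9cKO. Control animals carried Sox9fl/fl, that is, Sox9 alleles flanked by loxP sites, with no Cre named in the labels. Sox9cKO animals carried the same floxed alleles and 1 copy of AlbCre (Sox9fl/fl:AlbCre+/-), so floxed Sox9 is common to both groups. AlbCre is driven by the albumin promoter, which is active in hepatocytes and in the fetal hepatoblasts from which hepatocytes and bile duct cells arise, and is not specific to the duct. Ages and sexes were not given in the labels, and the labels do not say whether the 3 samples of a group came from separate animals, so p-values measure only the spread between these samples.

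Notch signalling passes between touching cells. A ligand of the Jagged or Delta-like family on one cell binds a Notch receptor on its neighbour, the receptor is cut by ADAM10 and then by gamma-secretase, and the freed intracellular domain joins RBPJ and a Mastermind protein in the nucleus to switch on genes such as Hes1 and Hey1, which encode transcriptional repressors. In the liver the pathway is best known for bile duct formation: loss of a functional copy of JAG1 or NOTCH2 causes Alagille syndrome, in which bile ducts are too few, and Sox9 is a Notch-responsive gene of the forming duct. NOTCH4 and DLL4 are best known from blood vessels and NOTCH3 from the mural cells around them.

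Values are normalized read counts, meaning reads scaled by the size factor each library was given, unless said otherwise. The libraries held between 11883496 and 16191990 reads assigned to genes. Sox9 stood at 6211, 6043 and 6293 in Control replicates 1 to 3 and at 3363, 3165 and 3340 in Sox9cKO replicates 1 to 3, so no library went against its label (53.2% of Control on average). All 10 biliary markers checked were detected, with a summed level between 163730 and 230206. Markers of other cell types were detected as well: 12 endothelial markers summed to 15816, 50375 and 2336 in Control and to 39325, 52438 and 8706 in Sox9cKO, a range of 22.4-fold over libraries. The 12 mural and stellate markers summed to between 3470 and 4094 in Control and between 4067 and 5378 in Sox9cKO. The 10 hepatocyte markers summed to between 21968 and 34238 in Control and between 43157 and 72895 in Sox9cKO, and the Kupffer cell, leukocyte and erythroid markers (9 of 10 in the table, Cd3e not analysed here) to between 1066 and 1157 and between 1530 and 1834. The separation of each of these last sums rested on 1 gene. Without Apob the hepatocyte sums were 19726 to 30926.5 in Control and 25974.5 to 40330.5 in Sox9cKO and overlapped, and 6 of the 10 markers, Alb and Ttr among them, overlapped between the groups. Without Csf1r the other sum was lower in Sox9cKO, at 196 to 265 against 268 to 438, and 7 of the 8 tested markers of that list had log2 fold changes below 0. Apob and Csf1r were left out after their values were seen. No marker in the table was at 0 in every library. In Control, Reln and Rgs5, with means of 1705 and 1245, were the largest parts of the mural and stellate sum. Alb, with a Control mean of 21337, was the largest part of the hepatocyte sum. Which cells the reads of these markers came from was not tested.

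Of the 10 Notch genes, 1 passed the test between the groups. Dll1 rose in Sox9cKO, and no member fell. A gene is called here when its limma p-value, adjusted over all 17153 genes tested, is under 0.05, and 2.97% of all tested genes were called (2.03% higher and 0.939% lower in Sox9cKO). The test used log2(value + 1) and a minimum mean of 10 normalized reads, a filter that all 10 members passed. Dll1 was also the only member called by the other tools or with the replicate number as a block. That block called 8.05% of all tested genes (5.06% higher, 2.99% lower), edgeR's quasi-likelihood test 2.86% (1.82% higher, 1.04% lower) and DESeq2 7.08% (4.2% higher, 2.87% lower). Before adjustment, 4 of the 10 (Dll1 and Jag1 higher, Jag2 and Notch2 lower) had a limma p under 0.05, against 17.8% of all tested genes. The 3 values of a group lay entirely above or below those of the other group for 4 of the 10 members (Dll1 and Hey1 higher, Jag2 and Hes1 lower in Sox9cKO), against 24.2% of all tested genes. The median log2 fold change was 0.23 over the 10 members and 0.04 over all tested genes.

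**Figure D1:**
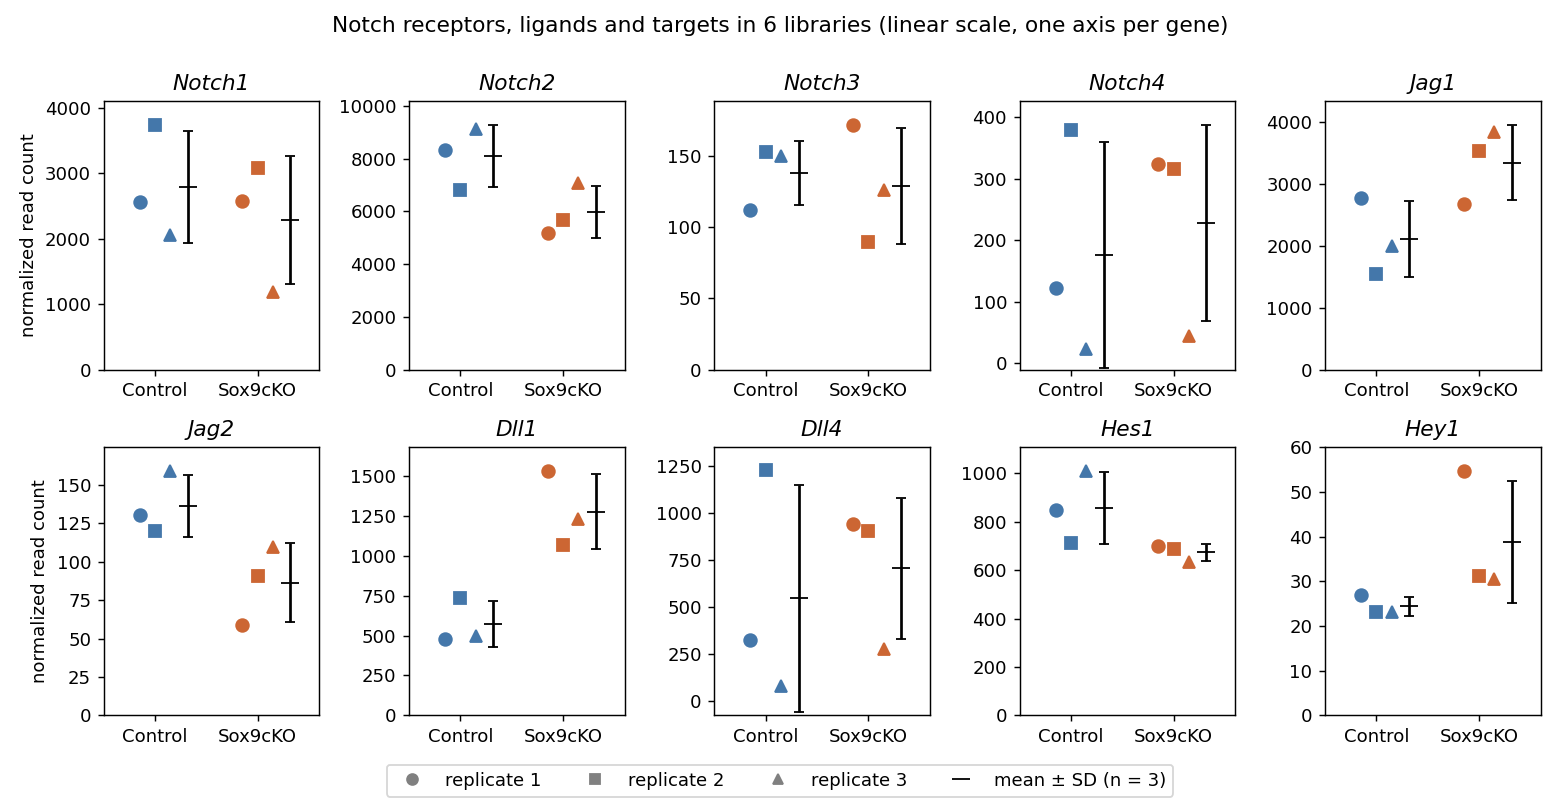
Normalized read counts of the 10 genes in each of the 6 libraries, one linear axis per gene. Blue points are Control and orange points Sox9cKO, the marker shape gives the replicate number, and the black bar is the mean ± SD (n = 3). Dll1 lies between 481 and 739 in Control and between 1067 and 1532 in Sox9cKO, while Notch4 and Dll4 spread over more than 14-fold within the 6 libraries.

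Among the ligand genes, Dll1 (ENSMUSG00000014773), which encodes Delta-like 1, was at 481, 739 and 497 in Control and at 1532, 1067 and 1229 in Sox9cKO. Every Sox9cKO library thus lay above every Control library. The means were 572 ± 145 and 1276 ± 236 (SD, n = 3), a 2.23-fold difference in Dll1. On the log2 scale this was 1.17 (SE 0.21, adjusted p 0.0342 by limma), and the 95% interval ran from 0.67 to 1.66. Compared within replicate numbers 1, 2 and 3, the log2 differences of Dll1 were 1.67, 0.53 and 1.31. Leaving out 1 library at a time ended the call in 5 of 6 fits: limma's adjusted p was 0.147 without Control replicate 1, 0.122 without Control replicate 3, 0.0898 without Sox9cKO replicate 1, 0.0546 without Sox9cKO replicate 2 and 0.0918 without Sox9cKO replicate 3. Without Control replicate 2, the highest Control library, it was 0.0182. The log2 fold change of Dll1 stayed between 1.03 and 1.37 in these fits.

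RefSeq lists 2 transcription starts for Dll1, and the windows around them are shown because Dll1 is the member that passed the test and the deleted gene encodes a SOX factor. Each window runs from 250 bases before the start to 50 bases after it, on the minus strand of GRCm38.p6, written 5′ to 3′ along the gene. Capitals mark ACAAT or its complement ATTGT, the core of the motif that SOX proteins bind.
Dll1, upstream start, chr17:15376883-15377182: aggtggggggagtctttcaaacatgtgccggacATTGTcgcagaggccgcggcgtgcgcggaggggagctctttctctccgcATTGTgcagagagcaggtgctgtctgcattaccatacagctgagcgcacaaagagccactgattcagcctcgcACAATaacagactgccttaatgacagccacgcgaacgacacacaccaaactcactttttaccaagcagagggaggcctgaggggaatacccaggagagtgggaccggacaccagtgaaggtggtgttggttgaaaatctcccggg
Dll1, downstream start, chr17:15375774-15376073: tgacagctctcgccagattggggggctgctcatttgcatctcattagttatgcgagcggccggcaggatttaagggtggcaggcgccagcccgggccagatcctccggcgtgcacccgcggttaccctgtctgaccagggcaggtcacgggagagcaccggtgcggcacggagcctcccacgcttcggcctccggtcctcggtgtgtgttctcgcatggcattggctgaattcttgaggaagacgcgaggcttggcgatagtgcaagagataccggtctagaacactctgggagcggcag
The window of the upstream start held 3 matches to ACAAT, beginning at positions -217, -168 and -95 from the start, and that of the downstream start held none. At least 1 match occurred in 31.0% of the 32851 promoter windows in the RefSeq table, and 3 or more in 1.87%. The table held 9 windows for 8 of the 10 members, all but Hes1 and Hey1. Jag1 and Notch4 had 1 match each in their windows, and Notch1, Notch2, Notch3, Jag2 and Dll4 had none. The longer AACAAT, which contains ACAAT, was in 10.7% of all windows and in no member's. The RBPJ motif was searched as TGGGAA (25.6% of all windows) and as GTGGGAA, which contains it (6.38%), on both strands, and neither was found in a member's window. A match is only a run of letters, and no binding was measured in this series.

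Jag1 (ENSMUSG00000027276), which encodes Jagged 1, the ligand affected in Alagille syndrome, was at 2771, 1547 and 2002 in Control and at 2667, 3520 and 3826 in Sox9cKO. The groups overlapped, because Control replicate 1 lay above Sox9cKO replicate 1. Means were 2107 ± 618 and 3338 ± 601 (SD, n = 3) for Jag1, and its log2 fold change of 0.69, with a standard error of 0.23, did not pass the test (adjusted p 0.187 by limma). Within replicate numbers 1 to 3 the log2 differences of Jag1 were -0.05, 1.19 and 0.93. Jag2 (ENSMUSG00000002799), which encodes the second Jagged ligand, was far lower in reads, at 130, 120 and 159 in Control and at 58.7, 90.7 and 110 in Sox9cKO. All 3 Sox9cKO libraries lay below the Control libraries, and the log2 fold change of Jag2 was -0.69 with a standard error of 0.27 (adjusted p 0.241 by limma). The 95% interval for Jag2 ran from -1.32 to -0.06, which excludes 0, while the p adjusted over all genes did not pass. The same held for Jag1 (0.14 to 1.24) and for Notch2 (-0.82 to -0.05).

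**Figure D2:**
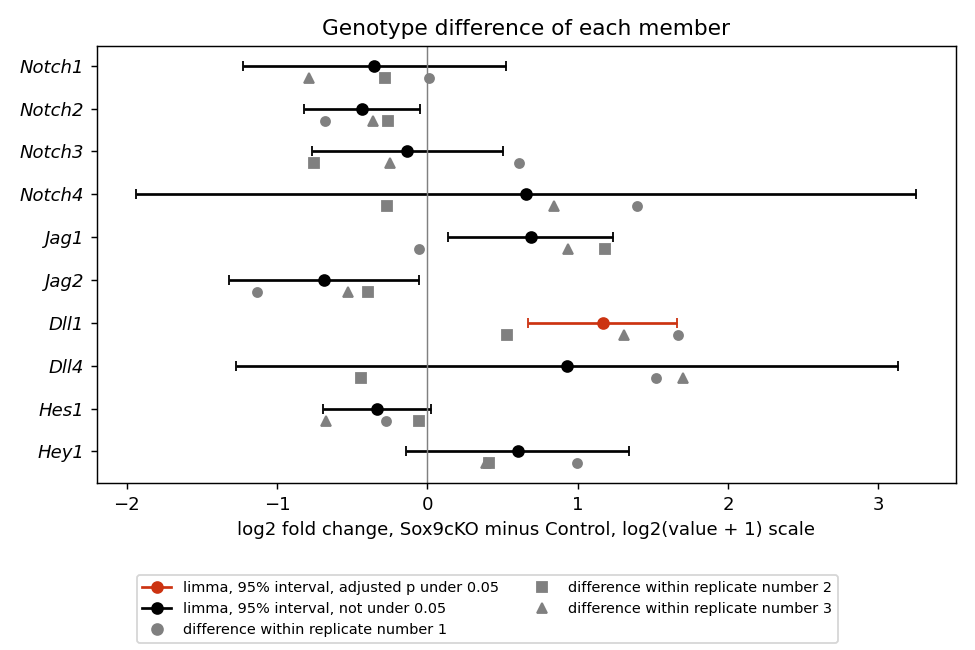
Difference of each gene between the genotypes on the log2(value + 1) scale, Sox9cKO minus Control, with its 95% interval from limma (n = 3 per group); the grey markers below each interval are the differences within each replicate number. The interval of Dll1 (0.67 to 1.66, in red) is the one that passed the adjusted test, and those of Notch4 and Dll4 are the widest.

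Among the receptor genes, Notch2 (ENSMUSG00000027878), the receptor affected in Alagille syndrome, had the most reads. It was at 8340, 6811 and 9110 in Control and at 5199, 5685 and 7093 in Sox9cKO. Only the highest Sox9cKO library reached into the Control range, where it passed Control replicate 2. Notch2 had means of 8087 ± 1170 and 5992 ± 983 (SD, n = 3) and a log2 fold change of -0.43 with a standard error of 0.16, which did not pass the test (adjusted p 0.227 by limma). Same-numbered libraries differed in Notch2 by -0.68, -0.26 and -0.36 on the log2 scale. Notch1 (ENSMUSG00000026923), a receptor used in many tissues including endothelium, was at 2561, 3732 and 2067 in Control and at 2586, 3076 and 1194 in Sox9cKO, with overlapping groups and a log2 fold change of -0.35 (standard error 0.37, adjusted p 0.685 by limma). Notch3 (ENSMUSG00000038146) was low, at 112, 152 and 150 in Control and at 171, 89.8 and 126 in Sox9cKO. Its groups overlapped fully, and its log2 fold change was -0.13 with a 95% interval from -0.77 to 0.50 (adjusted p 0.848 by limma). The mural and stellate markers, the cells for which NOTCH3 is best known, overlapped between the groups as well, and 0 of the 11 tested were called.

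Notch4 and Dll4 followed the summed endothelial markers from library to library, whatever the genotype. Ptprb, Stab2 and Kdr, with Control means of 7313, 5751 and 3603, were the largest parts of that sum. Vwf, also in the list, did not share its order: it ranged over 2.64-fold and was higher in every Sox9cKO library than in every Control library. Notch4 (ENSMUSG00000015468) was at 123, 380 and 24.2 in Control and at 324, 316 and 44.2 in Sox9cKO, a range of 15.7-fold. Dll4 (ENSMUSG00000027314) was at 326, 1229 and 84.1 in Control and at 940, 905 and 276 in Sox9cKO, a range of 14.6-fold. For each of them Control replicate 2 and Sox9cKO replicates 1 and 2 were the 3 highest libraries and Control replicate 3 was the lowest, and the same 3 libraries were highest and the same 1 lowest in the summed endothelial markers. Per 1000 reads of the endothelial markers, a list that contains neither gene, Notch4 ranged only from 5.07 to 10.4 and Dll4 from 17.3 to 36.0 over the 6 libraries. By contrast, the same ratio ranged over 36.0-fold for Notch2, 27.9-fold for Jag1 and 15.1-fold for Notch1. Notch1 nevertheless shared part of the order: the 4 libraries with the highest endothelial sums were also its 4 highest, while its whole range over libraries was 3.12-fold. In bulk RNA, fewer cells of a type and less RNA per cell cannot be told apart. The log2 fold changes between the groups were 0.66 for Notch4 (95% interval -1.94 to 3.26, adjusted p 0.812 by limma) and 0.93 for Dll4 (-1.27 to 3.13, adjusted p 0.668), intervals that span 0 widely. All 12 endothelial markers had log2 fold changes above 0 (median 1.09), as did 9293 of all 17153 tested genes. Most of these markers varied together over the libraries, so they are not 12 separate observations. None of the 12 was called by limma, where 1 had an unadjusted p under 0.05, against 17.8% of all tested genes. With the replicate block in limma 2 were called, both higher in Sox9cKO (Vwf, adjusted p 0.0420, and Egfl7, 0.0356). That block called 8.05% of all tested genes, 5.06% of them as higher. The sign of both members turned when Control replicate 3 was left out (-0.38 for Notch4 and -0.04 for Dll4).

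**Figure D3:**
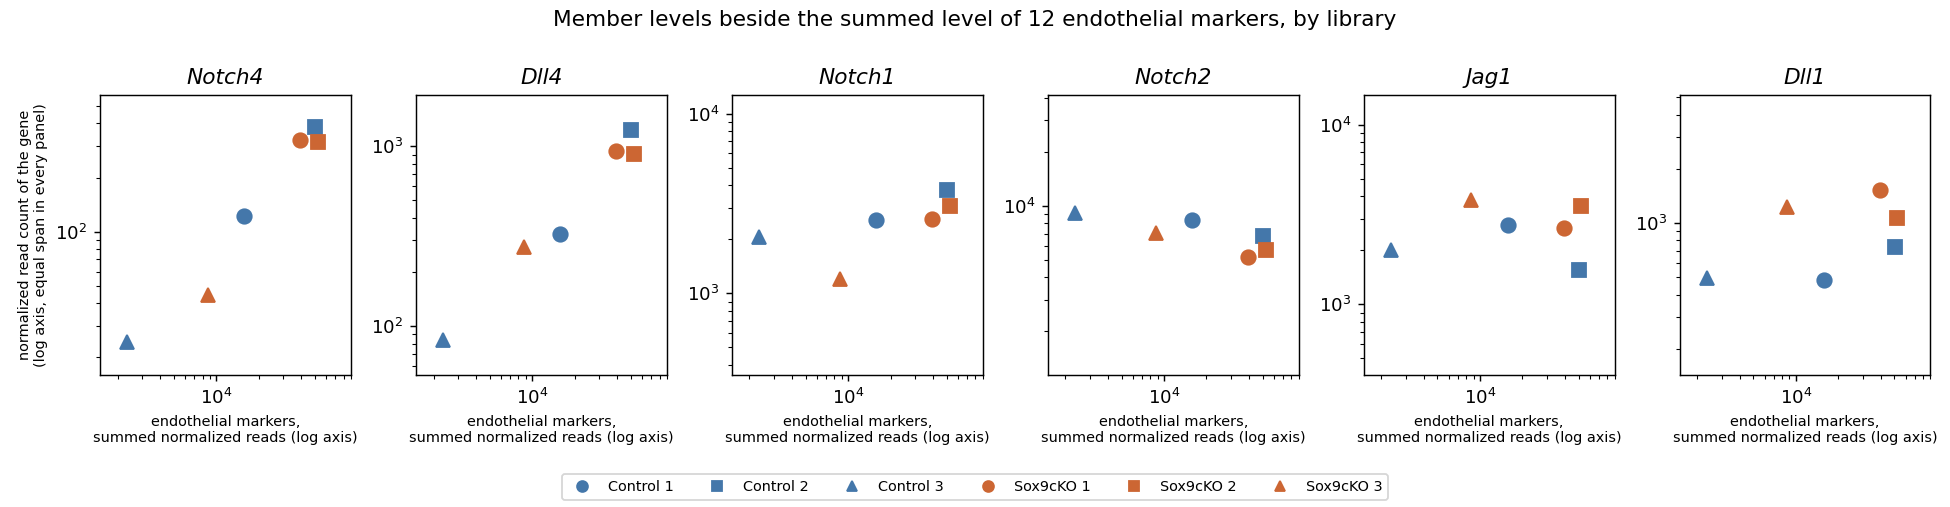
Normalized read counts of 6 members against the summed level of the 12 endothelial markers in the same library, on log axes that span the same ratio in every panel. Notch4 and Dll4 climb with the endothelial level in both genotypes (blue Control, orange Sox9cKO). Every Sox9cKO value of Dll1 lies above every Control value, and the part of the endothelial level in this was not tested.

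Dll1 did not share that order. In Control replicates 1 to 3, with endothelial levels of 15816, 50375 and 2336, Dll1 was at 481, 739 and 497. In Sox9cKO replicates 1 to 3, with 39325, 52438 and 8706, it was at 1532, 1067 and 1229. The library with the highest endothelial level was the highest for Dll1 within Control and the lowest within Sox9cKO. Of the hepatocyte markers, 3 of 10 were called, all higher in Sox9cKO as Dll1 was (Apob, Fgb and Serpina1c), and 2 of the 10 had log2 fold changes below 0. Of the 8 tested Kupffer cell, leukocyte and erythroid markers 1 was called, Csf1r, also higher, and the other 7 had log2 fold changes below 0. Over all tested genes 2.97% were called. The part of the endothelial markers and of these other markers in the Dll1 result was not tested.

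Of the target genes, Hes1 (ENSMUSG00000022528), the repressor most often used as a readout of Notch activity, was at 849, 712 and 1009 in Control and at 701, 685 and 632 in Sox9cKO. All 3 Sox9cKO values lay below all 3 Control values, but the gap between Control replicate 2 and Sox9cKO replicate 1 was small. Hes1 had means of 857 ± 149 and 673 ± 36.5 (SD, n = 3) and a log2 fold change of -0.34 with a 95% interval from -0.69 to 0.02 (adjusted p 0.311 by limma). Hey1 (ENSMUSG00000040289), a related repressor, was the lowest of the 10 genes, at 26.9, 23.2 and 23.0 in Control and at 54.7, 31.2 and 30.6 in Sox9cKO. The groups did not overlap, Sox9cKO replicate 1 stood apart from the other 5 libraries, and the log2 fold change of Hey1 was 0.60 with a 95% interval from -0.14 to 1.34 (adjusted p 0.381 by limma). Hes1 and Hey1 therefore had differences of opposite sign, and neither was called.

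Compared per kilobase of annotated exon, which puts genes of different length on one scale, Notch2 had the highest level of the 10 in Control, at 750.1 ± 109 normalized reads per kb (SD, n = 3). Hes1 (421 ± 73.1) and Jag1 (362 ± 106) followed, with overlapping libraries. Below them came Notch1 (196 ± 60.1), Dll4 (142 ± 157) and Dll1 (136 ± 34.3), whose libraries also overlapped. Notch4 (21.8 ± 22.8), Jag2 (19.6 ± 2.92) and Notch3 (17.1 ± 2.80) formed a low tier with overlapping libraries, and Hey1 had the lowest mean, at 7.47 ± 0.668. This order is of Control means, and the places of Notch4 and Dll4 depended on the library: in Control replicate 3 Notch4 per kb (3.00) lay below Hey1 (7.06), and in Control replicate 2 Dll4 per kb (319) lay above Jag1 (266). In Sox9cKO, Jag1 reached 573 ± 103 per kb beside 556 ± 91.2 for Notch2, and Dll1 reached 302 ± 56.0 beside 330 ± 17.9 for Hes1. Notch2 made up between 65.8% and 86.2% of the receptor transcripts per kb in every library, and Notch1 at most 27.3%. These shares depend on the length used, the union of all annotated exons (14.2 kb for Notch1 and 10.8 kb for Notch2). That union can exceed the length of the transcript expressed, which was not determined. The share of Jag1 among the ligand transcripts ran from 34.2% in Control replicate 2, where Dll4 held 41.1%, to 68.6% in Control replicate 1.

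The summed levels per kb, a quantity chosen after the values were seen, were lower in Sox9cKO for the receptors and higher for the ligands, although single members went the other way (Notch4 and Jag2). The 4 receptor genes together were at 983, 960 and 1012 normalized reads per kb in Control and at 725, 794 and 763 in Sox9cKO, which put Sox9cKO at 77.2% of Control on average. The 4 ligand genes together were at 693, 777 and 506 in Control and at 1073, 1105 and 1036 in Sox9cKO, a 1.63-fold difference of the means. Neither sum overlapped between the groups, and no share over comparable sums was computed. Taken singly, Notch2 and Jag1 overlapped between the groups, while 24.2% of all tested genes did not. Without Notch4 the receptor sums were 967, 913 and 1009 against 685, 755 and 757, and without Dll4 the ligand sums were 608, 458 and 484 against 829, 870 and 964. Notch1, which shared part of the endothelial order, stayed in the receptor sum. Of the members summed, 0 of 4 receptors and 1 of 4 ligands passed the test, and no test was run on them.

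**Figure D4:**
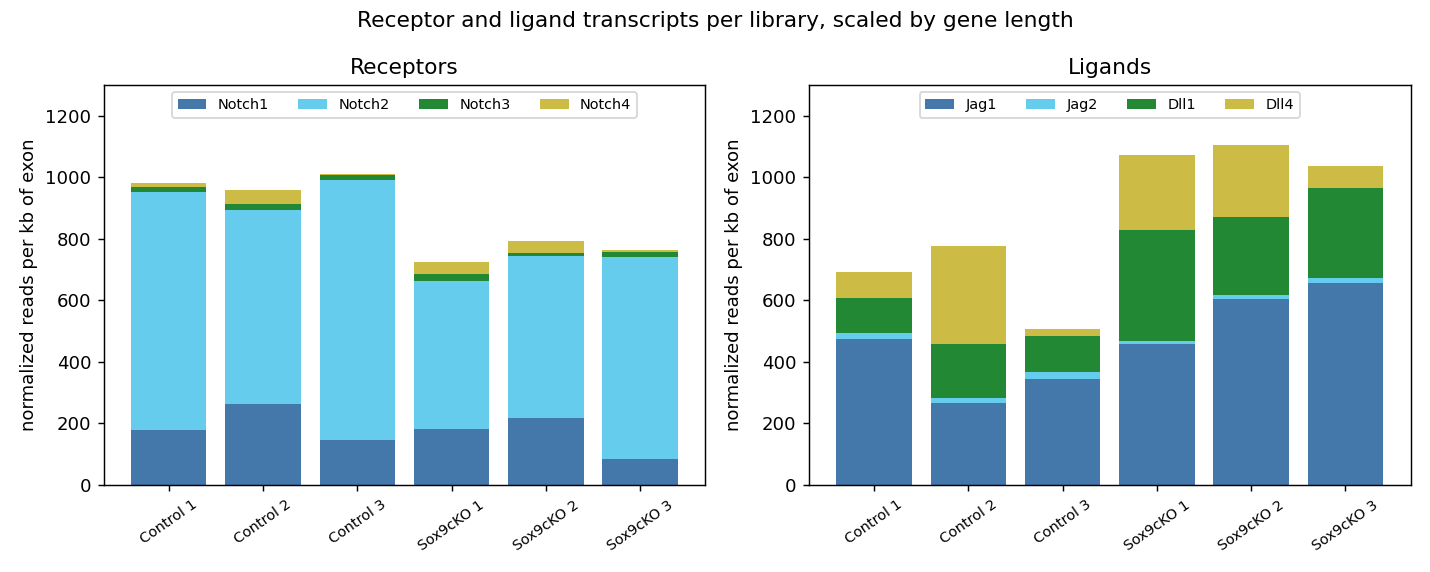
Stacked normalized reads per kb of exon for the 4 receptor genes (left) and the 4 ligand genes (right) in each library, both on a linear axis from 0. Receptor totals lie between 960 and 1012 in Control and between 725 and 794 in Sox9cKO, and ligand totals between 506 and 777 in Control and between 1036 and 1105 in Sox9cKO.

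The genes whose log2 values were most like those of a member over the 6 libraries are given as a description, since all points share library and genotype and 11064 genes were compared for each member. For Dll1 these were Tnfrsf11a, which encodes the receptor RANK (Pearson r 0.998), Stom, which encodes stomatin (0.996), and Zdhhc1 (0.989). Tnfrsf11a was at 72.3, 109 and 78.3 in Control and at 195, 150.3 and 166 in Sox9cKO. For Dll4 they were Lmo2, which encodes a transcription cofactor of blood and endothelial cells (0.9995), Vash1 (0.998) and Adamts4 (0.997). Lmo2 was at 56.3, 183 and 18.4 in Control and at 136, 134 and 49.8 in Sox9cKO. For Notch4, the closest was Hdc (0.9999), and for Notch1 it was Ecscr, an endothelial surface protein gene (0.997).

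Beyond the 10 members, a list of 78 other genes of the pathway was examined, of which 66 could be tested. The only one called was Tle4, which fell, so 1.52% of the list was called against 2.97% of all tested genes. The list's median log2 fold change was 0.14, against 0.04 over all tested genes, and the groups did not overlap for 24 of the 66 (17 higher and 7 lower in Sox9cKO), or 36.4% against 24.2%. Blocking by replicate number gave 12 calls among the 66 in limma, 9 higher and 3 lower, against 8.05% of all tested genes. Among those not tested, 8 had a mean under 10 normalized reads (Dner, Mfap2, Ccn3, Neurl2, Hes2, Hes3, Hes7 and Hey2), and 4 were not analysed here (Dlk1, Dlk2, Mfap5 and Hes5).

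**Figure D5:**
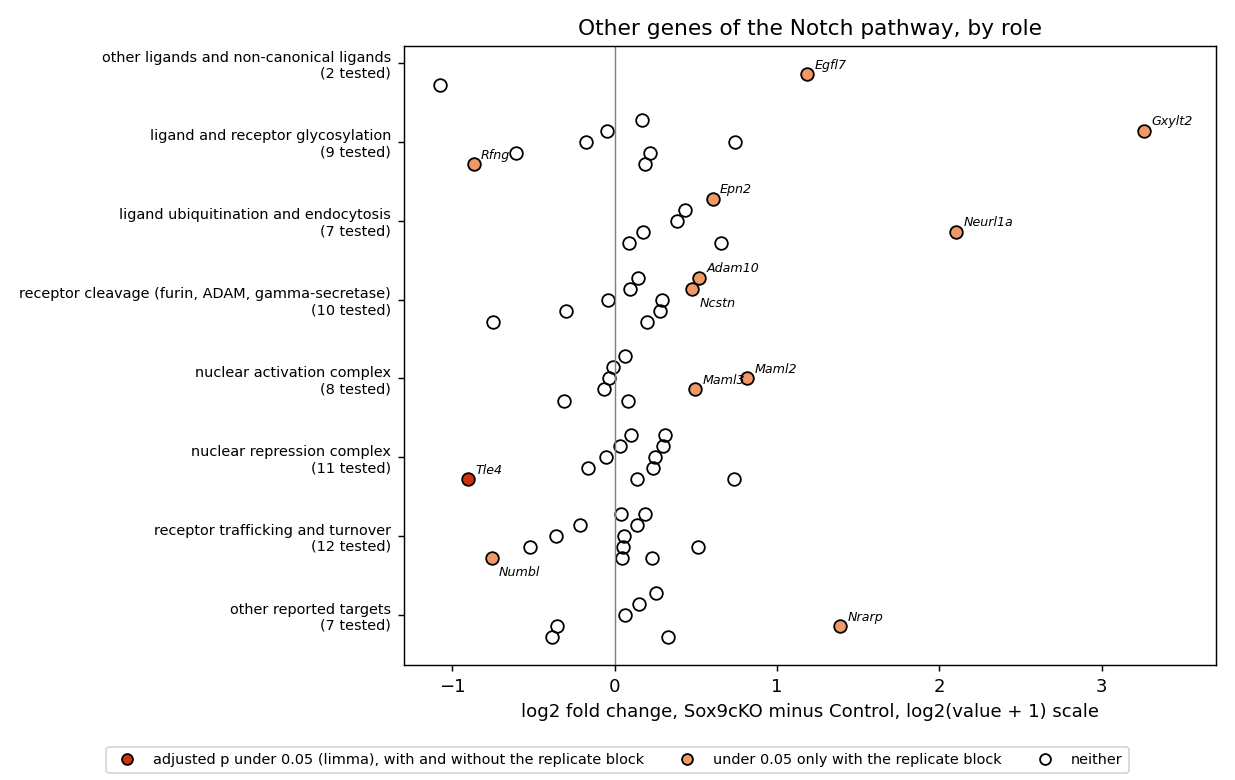
Log2 fold changes (Sox9cKO minus Control, limma, 3 libraries per group) of the 66 tested pathway genes outside the 10 members, by role. Red marks Tle4, called with and without the replicate block, and orange the genes called with the block alone; 45 of the 66 lie above 0, as do 9293 of all 17153 tested genes.

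Ligands work only after they are ubiquitinated and pulled into the sending cell. All 7 tested genes of this step had log2 fold changes above 0, with a median of 0.43, and 5 of them had Sox9cKO values all above Control, but none was called. Over all 17153 tested genes, 9293 had log2 fold changes above 0 and 13.4% had Sox9cKO values all above Control. AC132288.2, with 16.9 normalized reads on average, overlaps exons of Neurl1a on the same strand. Neurl1a, a Neuralized-family ubiquitin ligase gene, was at 25.2, 39.0 and 39.2 in Control and at 91.5, 291 and 122 in Sox9cKO (log2 fold change 2.10, adjusted p 0.0554 by limma and 0.00938 when blocked by replicate). Neurl3, of the same family and the most abundant of it, had means of 6492 ± 780.5 and 8742 ± 630 (SD, n = 3; adjusted p 0.139 by limma). The epsin genes of ligand endocytosis, Epn1 and Epn2, had log2 fold changes of 0.39 and 0.60, and Epn2, named because of it, was called with the block (adjusted p 0.0478 by limma).

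Sugars added to the receptor set how it responds to each ligand, and none of the 9 genes of this group was called. Gxylt2, whose enzyme adds xylose to the O-glucose of Notch repeats, was at 13.4, 6.50 and 11.5 in Control and at 37.8, 274 and 111 in Sox9cKO (log2 fold change 3.26, adjusted p 0.0560 by limma and 0.0314 when blocked by replicate). Rfng, a Fringe glycosyltransferase gene, was at 177, 151 and 212 in Control and at 113, 70.9 and 114 in Sox9cKO (-0.87, adjusted p 0.127 by limma and 0.0314 when blocked by replicate). Another Fringe gene, Mfng, had means of 56.3 ± 20.8 and 36.1 ± 9.76 (SD, n = 3; adjusted p 0.428 by limma). Lfng, the third Fringe gene, chosen after its values were seen, had its 6 libraries in the same order as the summed endothelial markers.

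Of the 10 tested genes for receptor cleavage, none was called, 7 had log2 fold changes above 0, and 4 had Sox9cKO values all above Control, the latter against 13.4% of all tested genes. Adam10, the protease of the ligand-induced cut, was at 1545, 1504 and 1414 in Control and at 2321, 2168 and 1930 in Sox9cKO (log2 fold change 0.52, adjusted p 0.0631 by limma and 0.0244 when blocked by replicate). Ncstn, which encodes the gamma-secretase subunit nicastrin and whose exons overlap those of Copa on the opposite strand, had means of 917 ± 63.3 and 1285 ± 201 (SD, n = 3; log2 fold change 0.48, adjusted p 0.137 by limma and 0.0411 when blocked by replicate). Furin, whose protease matures the receptor, had a log2 fold change of 0.29 (adjusted p 0.208 by limma).

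In the nucleus, Rbpj, the DNA-binding partner of all Notch receptors, had means of 553 ± 56.6 and 559 ± 175 (SD, n = 3; log2 fold change -0.04, adjusted p 0.964 by limma) and was named after its values were seen. Among the 8 genes of the activation complex none was called. The Mastermind coactivator genes Maml2 and Maml3 had log2 fold changes of 0.82 and 0.50 (by limma, adjusted p 0.10001 and 0.0874, and 0.00890 and 0.0489 when blocked by replicate), and their Sox9cKO values all lay above Control. The acetyltransferase gene Kat2b had a log2 fold change of -0.31 (adjusted p 0.307 by limma).

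Of 11 genes on the repressing side, 1 was called. Tle4 encodes a Groucho-family corepressor, a partner of HES proteins. It was at 1861, 1287 and 1586 in Control and at 827, 874 and 800.4 in Sox9cKO, and fell by 0.90 on the log2 scale with a standard error of 0.15 (adjusted p 0.0268 by limma). As with Dll1, the call was kept without Control replicate 2 (adjusted p 0.0181 by limma) and was lost without Control replicate 1 (0.0983), Control replicate 3 (0.102), Sox9cKO replicate 1 (0.0763), Sox9cKO replicate 2 (0.0688) or Sox9cKO replicate 3 (0.0866). Tle1, of the same family, had a log2 fold change of 0.31, and the RBPJ corepressor gene L3mbtl3 had 0.74 (limma, adjusted p 0.292 and 0.186).

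Among 12 genes of receptor trafficking and turnover none was called. Numbl, an inhibitor of the receptor, was at 289, 280.3 and 388 in Control and at 133, 181 and 267 in Sox9cKO (log2 fold change -0.76, adjusted p 0.208 by limma and 0.0400 when blocked by replicate). Ubiquitin ligase genes Dtx4, of the Deltex family, and Nedd4 had log2 fold changes of -0.52 and 0.23 (limma, adjusted p 0.205 and 0.332).

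Among 7 tested target genes other than Hes1 and Hey1, none was called. Gm38287, with 25.2 normalized reads on average, overlaps exons of Nrarp on the opposite strand. Nrarp, a Notch target that encodes a feedback inhibitor of the pathway, was at 71.4, 135 and 56.5 in Control and at 251, 249 and 161 in Sox9cKO. All 3 Sox9cKO libraries lay above Control, with a log2 fold change of 1.39 and a standard error of 0.35 (adjusted p 0.0954 by limma and 0.0140 when blocked by replicate). Myc had a log2 fold change of -0.39, and Bhlhe40 one of 0.33 (limma, adjusted p 0.264 and 0.524). Of the further ligand genes tested, Dll3, whose protein inhibits Notch in its own cell, was at 38.7, 86.3 and 35.7 in Control and at 15.9, 26.5 and 28.3 in Sox9cKO (-1.07, adjusted p 0.241 by limma). Egfl7, a secreted endothelial protein gene that also stands in the list of endothelial markers, had a log2 fold change of 1.19 (adjusted p 0.618 by limma and 0.0356 when blocked by replicate) and its libraries in the order of the summed endothelial markers. The fold change of Egfl7 ran from 0.11 without Control replicate 3 to 2.11 without Control replicate 2.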

How the data were processed

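RNA from biliary epithelial cells was made into stranded, ribosomal RNA-depleted libraries with unique molecular identifiers, per the labels. The deposited signal per gene is counts divided by a size factor per library: 100% of values were whole multiples of the smallest value above 0 (tolerance 0.001 reads), which gave back whole reads. DESeq2 1.36.0 and GRCm39 are named in the submitters' processing notes. The aligner, the counting and the use of the molecular identifiers are not given in the sources used here, so it is unknown whether reads were assigned by strand. Annotated genes overlap exons of Notch1, Notch2, Notch3, Dll1 and Dll4, with at most 112 reads on average for those in the table (Gm42820, over Notch2).

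Values were tested as log2(value + 1) with limma 3.58.1 in R 4.3.3 (eBayes with an intensity trend), for genes with a mean of at least 10, with Benjamini-Hochberg adjustment over all 17153 genes, two-sided. The replicate numbers come from the labels. Same-numbered libraries deviated together from their group means (correlations across genes 0.207, 0.472 and 0.542), so the fit with the number as a block is given where it changes a call. Replicates differed by more than counting noise (chi-square over its degrees of freedom 20.7 or more), so none was a repeat deposit. edgeR 4.0.16 and DESeq2 1.42.0 on the recovered reads were alternatives. Limma and edgeR, each with and without the replicate block, and DESeq2 were run on simulated reads with no shared replicate effect. Only limma without the block had a set criterion there, on the sign and slope of its estimates. Without a replicate effect in those reads, the run cannot check the block fits where replicates share deviations. The other alternatives were not run on simulated reads. Lengths are unions of exons in GENCODE M21 (GRCm38), and promoter windows are RefSeq's on GRCm38.p6, neither of which is GRCm39. Named genes are Sox9, the 10 members, each called pathway gene and up to 3 more per role by p-value, with exceptions stated; 1 gene that the rule gives is not reported here. The members, lists and alternatives were chosen with earlier results of these data known.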

Additional observations from a re-analysis of the deposited data

How the results depend on the processing

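Each result was recomputed under 17 alternatives, 6 of which each left out 1 library. The number of called members, 1 (Dll1), was 0 without the intensity trend and between 0 and 1 with 1 library left out, and 1 under each of the other 10. For the other pathway genes the number called was 1 (Tle4), against 3 without a filter on low values, 12 with the replicate block, 8 with edgeR and the replicate block, 7 with DESeq2 and 0 without the intensity trend, and between 0 and 2 with 1 library left out. Over all genes it was 510, against 1381 with the replicate block, 1160 with edgeR and the replicate block and 1214 with DESeq2, and between 200 and 389 with 1 library left out. Fits that left out a library had fewer samples, and for the rest the cause was not tested. The replicate block changed the call of no member.

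Log2 fold changes of Dll1 lay between 1.03 and 1.37 throughout. Those of 4 uncalled members turned in sign with 1 library left out: the range was -0.62 to 0.061 for Notch1, -0.36 to 0.10 for Notch3, -0.38 to 1.6002 for Notch4 and -0.037 to 1.89 for Dll4. Of the 35 genes that the naming rule gives, no other turned in sign in any alternative. With 3 libraries per group, the intervals of Notch4 and Dll4 are the widest of the members, and Hey1, at 23.0 to 54.7 reads, is limited by counting as well.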
